A study of Mus musculus with 17 samples.

Results

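The genes described are the translation initiation factors of the mouse: the protein-coding genes on the autosomes whose symbol begins with Eif and a digit in GENCODE M21, an annotation of the GRCm38 genome. Of 55 such genes, 3 on the X or Y chromosome were left out by that rule, and the other 52 were all found among the 54838 genes of the count tables. The choice used names and positions and no measured value. Their transcripts were counted by bulk RNA sequencing of haematopoietic stem cells (HSCs) in 17 libraries of C57BL/6 Jrj mice, sorted from crushed bones by the gate Lin- cKit+ Sca1+ CD48- CD150+. Mice of 8 to 12 weeks gave 4 young control and 5 young CCCP libraries, and mice older than 18 months gave 3 old control and 5 old Mito-Q libraries. CCCP carries protons across membranes and so uncouples respiration from ATP synthesis, and the mice received it once at 0.3 mg/kg. Mito-Q is an antioxidant linked to a cation that draws it into mitochondria, and the mice received 2 mg/kg on each of 5 days. No genetic alteration is given for any group, and the labels are silent on vehicle for the controls, on the time from treatment to harvest and on whether libraries stem from separate mice. The p-values thus measure only the spread between libraries, which may be technical.

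Initiation is the step at which a ribosome is loaded onto an mRNA and set on its start codon. The cap-binding complex eIF4F (the cap-binding protein eIF4E, the scaffold eIF4G and the helicase eIF4A) prepares the mRNA. The small ribosomal subunit, which carries eIF1, eIF1A, eIF3, eIF5 and eIF2 with the initiator tRNA, scans for the start codon, and eIF5B then joins the large subunit. Both control points of this step answer to stress and nutrients: kinases that phosphorylate eIF2 alpha lower the supply of initiator tRNA complexes through the exchange factor eIF2B, and the 4E-BP proteins, restrained by the kinase complex mTORC1, block eIF4E. HSCs are known for a low rate of protein synthesis compared with their progeny.

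Sequences around the start codon are shown for the members on which the results below turn and for their relatives, because eIF1 and eIF5 act on the choice of that codon and because Eif4g2 begins with another codon. Each is the stretch from 9 bases before the start codon to 1 base after it, 5′ to 3′, read from a GENCODE M21 transcript, with the start codon in capitals.
Eif1: tcgtatcgtATGt
Eif1b: tagtgtcgcATGt
Eif5: taagccaaaATGt
Eif4g1: ccaaatgaaATGa
Eif4g2: gccgccaaaGTGg
Eif5a: cctcttaaaATGg
Eif4g2 was the only member of 52 whose annotated coding sequence did not begin with ATG: it begins with GTG. Among the other 51, 44 (86.3%) had a purine 3 bases before the start codon, the position that matters most for recognition, beside 85.0% of 19549 protein-coding genes that begin with ATG. Eif1, Eif1b, Eif3b and Eif4e1b had neither that purine nor a G just after the codon, 7.84% of the members beside 7.31% of all genes. Eif1 and its close relative Eif1b thus shared a start codon context without either base, while Eif5 and Eif5a had the purine.

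The stretch before the annotated start of Eif1 is shown because Eif1 changed most clearly of all members and because it was 1 of 2 members, with Eif3l, whose RefSeq promoter window held an AP-1 site. It is chr11:100319699-100319884 on the plus strand of GRCm38.p6, the 186 bases that end just before the GENCODE start of the gene, and no annotated gene overlaps it. The AP-1 site and a CCAAT box are in capitals.
Eif1 promoter: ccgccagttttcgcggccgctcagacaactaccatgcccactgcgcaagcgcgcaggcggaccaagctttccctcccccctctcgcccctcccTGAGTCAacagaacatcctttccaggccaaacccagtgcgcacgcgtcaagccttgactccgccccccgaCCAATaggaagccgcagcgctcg
Motifs were searched on both strands in windows from 250 bases before to 50 bases after each RefSeq start. The AP-1 motif TGACTCA, which reads TGAGTCA on the other strand, was in 2 of the 53 windows of the 40 members with an entry (3.77%), those of Eif1 and Eif3l, beside 4.46% of 32851 mouse promoters. The E-box CACGTG was in 20.8% of these windows beside 6.02% of all promoters, and the ETS motif CCGGAAG in 20.8% beside 6.91%. CCAAT was in 26.4% beside 33.8%. No member window held the cyclic AMP response element TGACGTCA (1.55% of all promoters) or the ATF4 composite motif TGATGNAA (3.45%). These are matches of letters and no measure of binding.

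Reads in genes ran from 5649611 to 8120443 per library, and 3 reads corresponded to 0.298 to 0.653 CPM (read counts scaled to the reads in tested genes and by TMM factors, as edgeR gives them). Old control 1, young control 3 and young CCCP 3 stood apart from the other libraries. Reads outside genes made up 62.4% of uniquely aligned reads in old control 1 and 65.5% in young CCCP 3, beside 20.1% to 53.3% elsewhere. The median Spearman correlation with the other libraries was 0.682 in young CCCP 3, 0.799 in old control 1 and 0.803 in young control 3, beside at least 0.828 in the remaining libraries. Kit, the receptor used in the sort, was read in every library, at 461.9 CPM or more. It ran from 690 to 1402 CPM in young and from 462 to 659 CPM in old controls. In the same order Slamf1 (CD150) ran from 46.5 to 55.0 and 85.3 to 104 CPM, and Ly6a (Sca1) from 185 to 352 and 317 to 819 CPM. Of 8 gate and identity genes, 3 were higher and 3 lower in old controls at an unadjusted p below 0.05, with 0 called. The shares of all genes were 6.77% and 7.45%. Cd48, the marker selected against, was at 0 in 7 libraries and at most at 19.2 CPM. The 12 genes of a granule and neutrophil list summed to 447 to 2211 CPM in young controls, 772 to 16547 in young CCCP, 1097 to 2400 in old controls and 988 to 14372 CPM in old Mito-Q libraries. An erythroid list of 6 genes summed to 46.2 to 199 CPM in young controls, 114 to 1193 in young CCCP, 70.8 to 285 in old controls and 44.1 to 746 CPM in old Mito-Q libraries. A list of 6 monocyte and dendritic cell genes summed to 14.8 to 34.4, 17.04 to 232, 23.2 to 39.8 and 13.5 to 124 CPM in the same order. With CCCP, values were above 0 for 12 of 12 granule genes (1 called), for 6 of 6 erythroid genes and for 4 of 5 monocyte and dendritic cell genes tested (none called). With Mito-Q they were above 0 for 11 of 12, 5 of 6 and 2 of 5 in the same order, with none called. In old against young controls they were above 0 for 6 of 12 (1 called higher), 2 of 6 and 4 of 5. Of 5 megakaryocyte genes tested, 3 were above 0 there and 1 was called higher. Of all genes tested, 58.7% were above 0 with CCCP (0.0652% called higher) and 44.9% with Mito-Q. In old controls 55.4% were above 0 (0.522% called higher). The 12 genes of an immediate early list, which stimulation induces within minutes, summed to 8223 to 14689 CPM in young controls, 395 to 756 in young CCCP, 1058 to 1805 in old controls and 15888 to 27487 CPM in old Mito-Q libraries. The part of any of these in the results below was not tested, except where a value is given. In bulk samples, fewer cells of a type and less RNA per cell cannot be told apart.

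Of the 52 members, 50 passed the filter on low counts. Eif4e1b, a cap-binding protein known from oocytes, had 16 reads in all libraries together and 0 in 14 of them. Eif4ebp3, a 4E-BP, had 24 reads and 0 in 12 libraries. On the scale of CPM per kb of exon, averaged over the 17 libraries, the median member stood at 33.2. Eif5a, which relieves ribosomes stalled during elongation, was highest at 616, followed by Eif1, which guards start codon choice, at 453, and Eif4a3, the helicase of the exon junction complex, at 144. Among the eIF3 subunits, the scaffold that holds the small subunit and the mRNA together, levels per kb ran from 1.65 (Eif3j2) to 139 (Eif3h). Reads of Eif3j1 and Eif3j2, near-identical copies, are uncertain because counting may have set aside reads that align to both. The highest eIF4F member was the helicase Eif4a1 at 77.9, the highest eIF2 member was the alpha subunit Eif2s1 at 34.6, and the highest eIF2B member was Eif2b2 at 38.9. The 4 eIF2 alpha kinases were low, from 1.80 (Eif2ak3) to 9.74 (Eif2ak2), whereas the repressor Eif4ebp1 stood at 95.6 per kb. Levels per kb thus ran from 1.65 (Eif3j2, with uncertain reads) to 616 among the members tested, and values differed widely between subunits of the same complex. The scale divides by all annotated exon, which ran from 1612 bases (Eif3h) to 8731 bases (Eif3a) among eIF3 subunits. The part of the annotation in this spread was not tested.

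**Figure D1:**
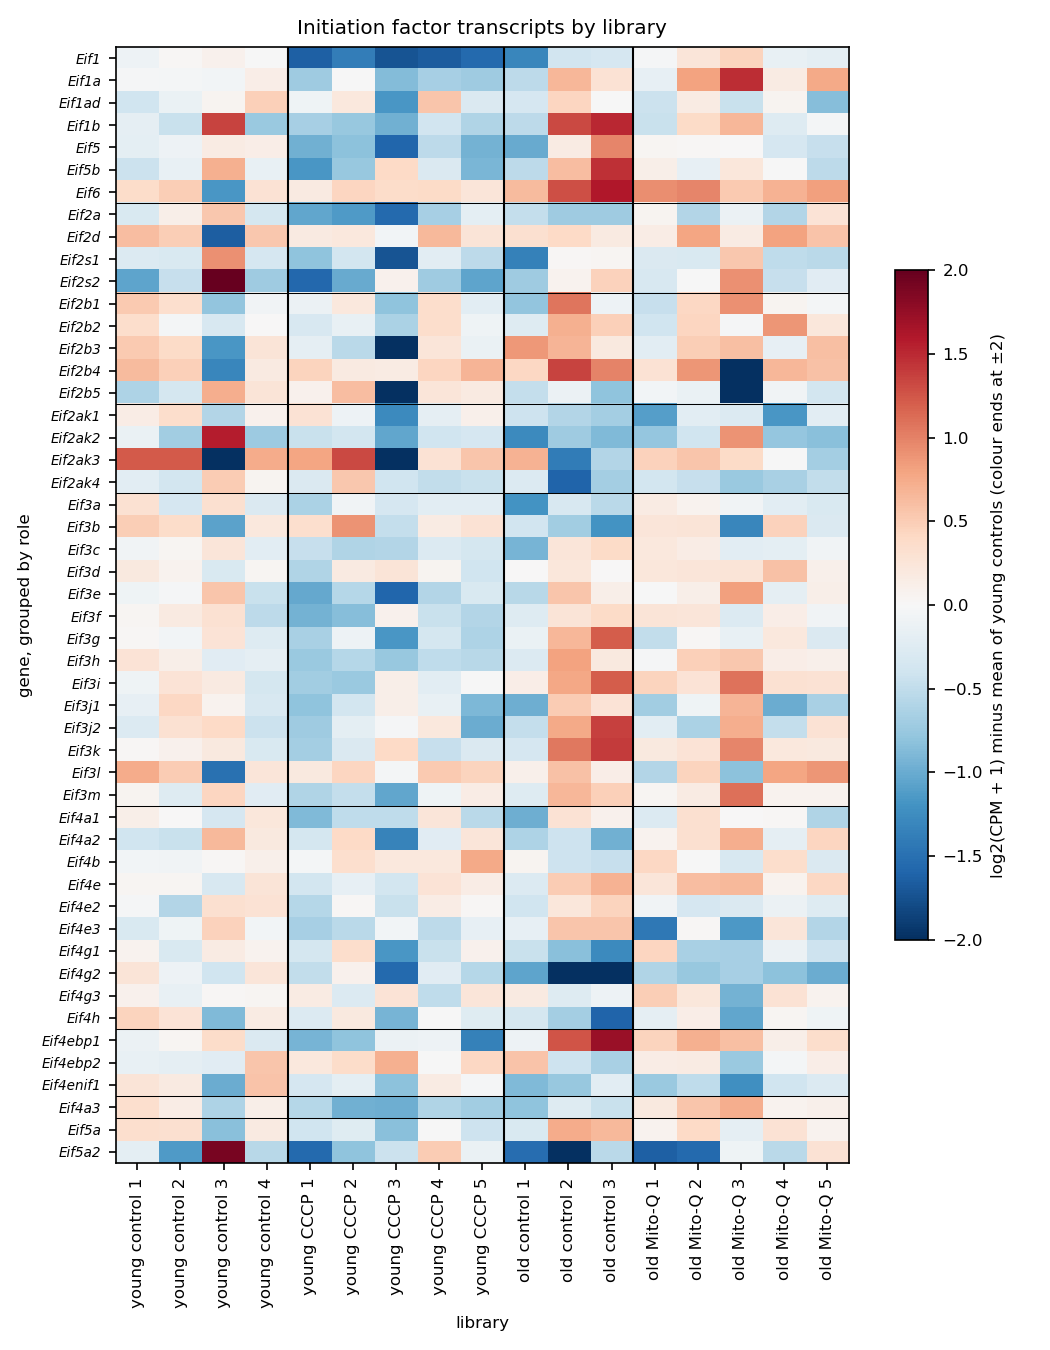
Transcript level of the 50 tested initiation factor genes (rows, grouped by role) in each of the 17 libraries (columns), as log2(CPM + 1) minus the mean of the young controls, with the colour ending at ±2. Eif1 is pale in young controls and blue in all 5 young CCCP libraries, Eif4g2 is blue in the old controls, and young control 3, young CCCP 3 and old Mito-Q 3 differ from their own groups in many rows.

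CCCP in young mice was compared with young controls to ask how an uncoupler of mitochondria alters HSC transcripts. Eif1 fell in young CCCP libraries, and it was the only member called in that comparison. Its mRNA encodes the small factor that keeps the scanning ribosome from starting at poor codons. Most other members had lower values as well, without passing the test: 42 of 50 had a fitted log2 fold change below 0, beside 41.3% of all genes tested. All genes tested include many of lower counts than most members, and medians of a set closer in level are given below.

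Eif1 (ENSMUSG00000035530, chromosome 11, 100319885 to 100322096) was read at 1165, 1272, 1319 and 1239.6 CPM in the young controls and at 401, 479.6, 374, 391 and 426 CPM in the young CCCP libraries. The groups did not overlap, and the libraries within each lay close together. The means were 1249 ± 65.0 CPM (SD, n = 4) and 414 ± 41.0 CPM (n = 5), a 3.01-fold lower mean with CCCP. The log2 fold change was -1.59 (SE 0.24, edgeR adjusted p = 0.000195). It passed the test under all 16 alternatives, with log2 fold changes from -1.66 to -1.52. With 1 of 50 members called, the share was 2% beside 0.718% of all 24523 genes tested (0.652% called lower, 0.0652% higher).

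**Figure D2:**
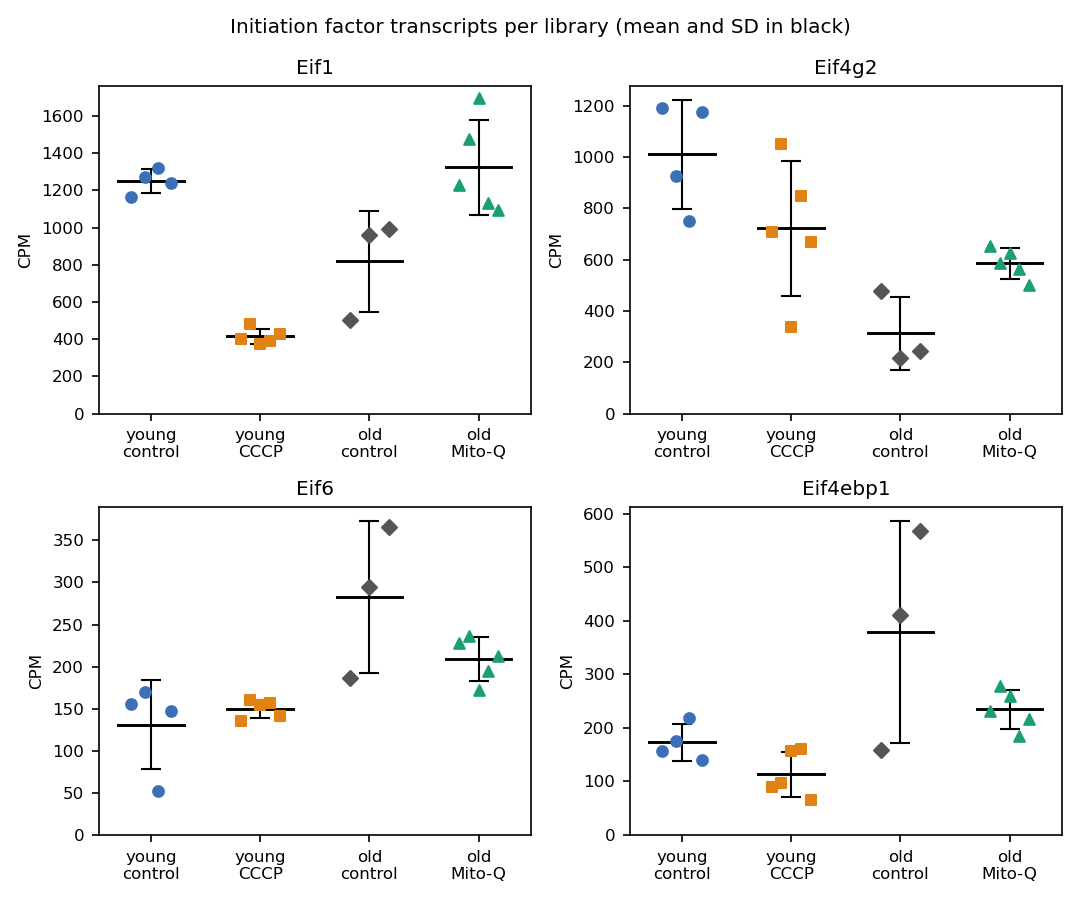
CPM of Eif1, Eif4g2, Eif6 and Eif4ebp1 in every library, by group, with the group mean and SD in black. Young CCCP libraries sit between 374 and 480 CPM for Eif1, below all young controls, and old controls between 217 and 477 CPM for Eif4g2, below all young controls.

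Eif1 was low in the same libraries in which the immediate early genes were low. Young CCCP libraries combined 374 to 480 CPM of Eif1 with 395 to 756 CPM of the 12 immediate early genes, and young controls 1165 to 1319 CPM with 8223 to 14689 CPM. The old groups lay in the same order, with 502 to 991 CPM of Eif1 in old controls and 1093 to 1695 CPM in old Mito-Q libraries. The groups form separate clusters, so no correlation over all libraries is given, and whether the 2 measures are linked was not tested. Young CCCP 2 had 772 CPM of granule and neutrophil genes, within the range of the young controls. It had 480 CPM of Eif1, the highest of the young CCCP libraries. The remaining young CCCP libraries had 5062 to 16547 CPM of granule genes, above every young control. The part of the granule genes in the fall of Eif1 was not tested.

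**Figure D3:**
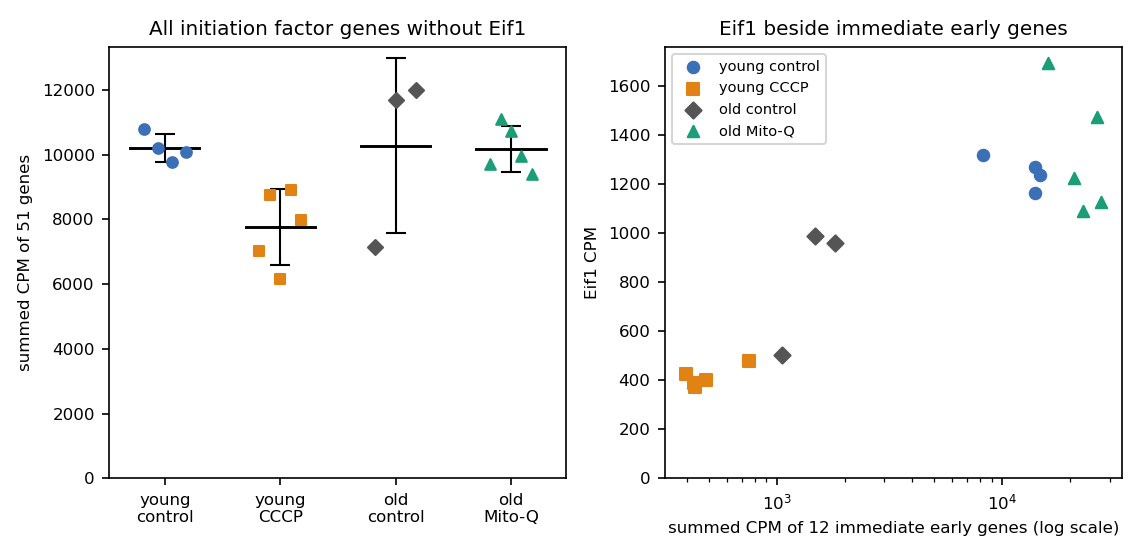
Left, summed CPM of the 51 other members in every library, by group, with the mean and SD in black. Right, CPM of Eif1 against the summed CPM of 12 immediate early genes on a log axis; the 5 young CCCP libraries sit at the lower left, at most at 480 and 756 CPM.

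Among the other factors of the small subunit and start codon choice, Eif5, which makes eIF2 hydrolyse its GTP at the start codon, was read at 489.9, 526, 633 and 619.8 CPM in young controls and at 289, 320.2, 187, 390.0 and 293 CPM with CCCP. Its groups did not overlap either, but the change did not pass the test (log2 fold change -0.94, SE 0.30, adjusted p = 0.226). Eif1b, which resembles Eif1, averaged 123 ± 95.4 CPM (n = 4) in young controls, where young control 3 alone reached 265 CPM, and 64.8 ± 9.73 CPM (n = 5) with CCCP. Its log2 fold change was -0.93 (SE 0.40, adjusted p = 0.391). Eif6, which keeps the large subunit from joining early, had almost level means, 150.1 ± 10.7 and 131 ± 53.1 CPM, with a log2 fold change of 0.19 and an interval of 2 SE from -0.39 to 0.77.

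Among eIF2 and other initiator tRNA carriers, 3 of 4 members had an unadjusted p below 0.05, all with lower values and none called. Of all genes, 4.8% were lower at that threshold. Eif2s1, the alpha subunit that the stress kinases phosphorylate, had -0.75 on the log2 scale (SE 0.35, adjusted p = 0.427). It stood at 383 CPM in young control 3, at 160 to 166 CPM in the other young controls and at 60.5 to 174 CPM with CCCP. Eif2s2, the beta subunit, had -1.46 (SE 0.51, adjusted p = 0.295). Young control 3 stood at 446 CPM, where the other young controls had 45.1 to 68.3 CPM and the CCCP libraries 31.1 to 101 CPM. Eif2a, an alternative carrier of initiator tRNA, had -0.90 (SE 0.32, adjusted p = 0.293), with 68.9 to 128 CPM in young controls and 29.2 to 76.3 CPM with CCCP. The 5 eIF2B subunits and the 4 kinases had log2 fold changes from -0.86 to 0.23, none with an unadjusted p below 0.05.

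Of the 14 eIF3 subunits, 12 had values below 0 (median log2 fold change -0.40) and none was called. Eif3h and Eif3c did not overlap between groups. Eif3h was read at 273, 245, 191 and 199 CPM in young controls and at 133, 150.1, 132, 157 and 153 CPM with CCCP. Its log2 fold change was -0.64 (SE 0.25, adjusted p = 0.349). Eif3b, the subunit that anchors the scanning module, was 1 of 2 subunits with a value above 0, at 0.19 (SE 0.35, adjusted p = 0.897). That sign turned without young control 3 or without young CCCP 2, as did that of Eif6 without young control 3 (-0.09).

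In the eIF4F group, 8 of 10 tested members had values below 0 and none an unadjusted p below 0.05. The helicase cofactor Eif4b (log2 fold change 0.32, SE 0.25, adjusted p = 0.705) and the repressor Eif4ebp2 (0.32, SE 0.32, adjusted p = 0.776) had the highest values of all members. Eif4a3 had the smallest p after Eif1. It was read at 419, 370.1, 217 and 362 CPM in young controls and at 223, 171, 168, 218 and 204 CPM with CCCP. Only young control 3 came within the CCCP range. Its log2 fold change of -0.80 (SE 0.25) did not pass the test (adjusted p = 0.216), and it passed with DESeq2 (adjusted p = 0.0428) and without the 3 libraries that stand apart (-0.90, adjusted p = 0.0200).

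Over all members, 9 had an unadjusted p below 0.05, all with lower values, 18% of those tested beside 4.8% of all genes in that direction, and none was higher, beside 6.35%. Among these 9, young control 3 was the highest young control for Eif1, Eif5, Eif1b, Eif2s1, Eif2s2, Eif2a and Eif3e. It was the lowest for Eif4a3 and Eif3h. Eif1, Eif5, Eif3h and Eif3c were the 4 members whose CCCP libraries all lay below the young controls, 8% beside 2.89% of all genes, and none lay above, beside 1.78%. The median member had a log2 fold change of -0.35 and the median gene 0.21. All genes tested include noncoding genes and many of low counts. Among 8753 protein-coding genes with an average log2 CPM above 4, the longer and shorter by exon length had medians of 0.019 and -0.12. For the longer and shorter members the medians were -0.31 and -0.41. Across all alternatives 38 to 45 members were below 0. Summed over the 52 members, levels were 11087 to 11959 CPM in young controls and 6519 to 9308 CPM with CCCP, and without Eif1 9768 to 10794 and 6145 to 8917 CPM, so that the groups did not overlap with or without Eif1. The lowest sum was in young CCCP 3, with 65.5% of reads outside genes and 14042 CPM of granule and neutrophil genes. Young CCCP 2, with 29.4% of reads outside genes and 772 CPM of granule genes, had a sum of 9229 CPM. The part of these shares and of the marker sums in the members' sums was not tested. The count of members below 0 is a description, since members share libraries and scaling.

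**Figure D4:**
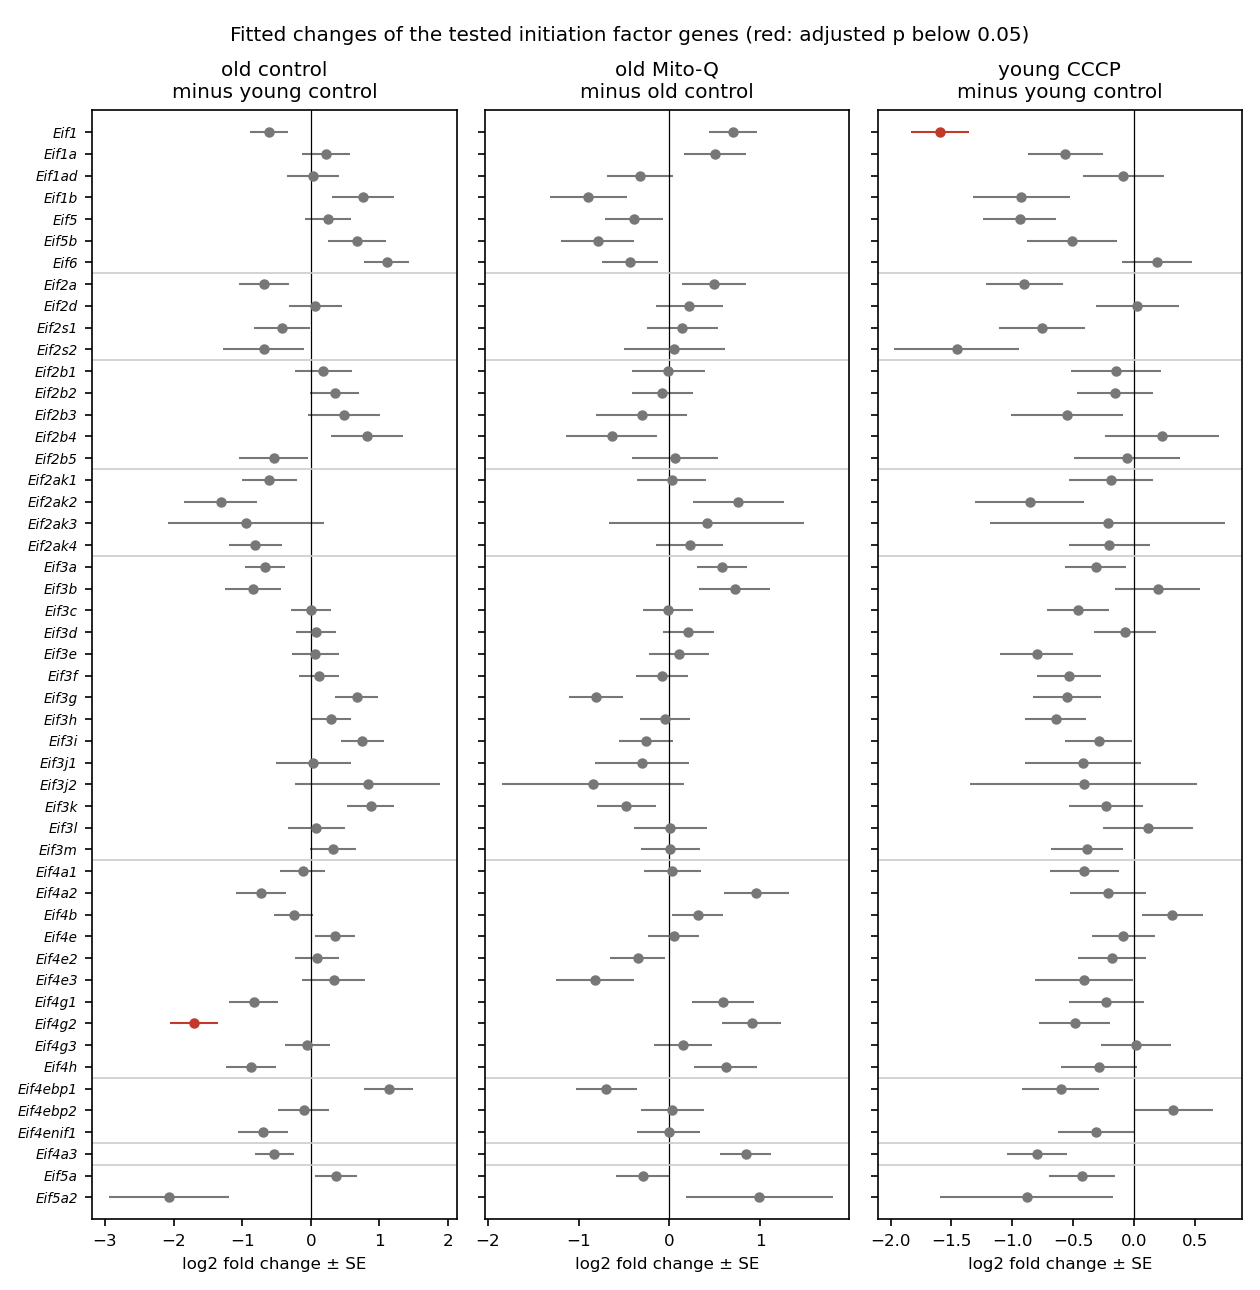
Fitted log2 fold change (point) and SE (bar) of the 50 tested members in each comparison, grouped by role, with members past an adjusted p of 0.05 in red. Eif1 is red with CCCP, Eif4g2 is red in old against young controls, none is red with Mito-Q, and most points of the CCCP panel lie below 0.

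Old controls were compared with young controls to ask how HSC transcripts differ with age. Eif4g2 fell in old controls and was the only member called. It encodes a scaffold related to eIF4G that lacks the eIF4E-binding part and serves initiation that does not depend on the cap-binding protein. Eif6 and Eif4ebp1 had the highest values among members that did not pass, and members of long exon length tended to lower values than short ones.

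Eif4g2 (ENSMUSG00000005610, chromosome 7, 111067750 to 111083030, on the minus strand) was read at 1194, 926, 751 and 1177 CPM in young controls and at 477, 217 and 243 CPM in old controls. Every old control lay below every young control, and old control 1, a library that stood apart, was the highest of the old group. The means were 1012 ± 213 CPM (SD, n = 4) and 312 ± 143 CPM (n = 3), 3.24-fold lower in old controls. The log2 fold change was -1.70 (SE 0.35, edgeR adjusted p = 0.00843). The call was lost in a fit of these 2 groups alone (adjusted p = 0.0771) and without old control 2 or old control 3 (adjusted p = 0.125 and 0.0963), with log2 fold changes of -1.67, -1.55 and -1.60. The single call made up 2% of the members tested, beside 1.69% of all genes (1.17% lower, 0.522% higher), so the count of calls does not stand out from the genes at large. A snoRNA gene lies within the Eif4g2 locus on the same strand, and reads that overlap both may have been counted for neither.

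The relatives of Eif4g2 were read in the same libraries. Eif4g1, the main eIF4G scaffold, had 158, 122, 169.9 and 159 CPM in young controls and 111, 84.2 and 62.1 CPM in old controls. Its groups did not overlap, and its log2 fold change was -0.83 (SE 0.36, adjusted p = 0.286). Eif4g3, the other eIF4G paralog, had a mean of 86.4 CPM in young and 83.4 CPM in old controls, a log2 fold change of -0.05 (interval of 2 SE from -0.71 to 0.60). Within each library, the log2 ratio of Eif4g2 to Eif4g1 averaged 1.81 ± 0.39 (n = 3) in old controls and 2.71 ± 0.38 (n = 4) in young controls. The ranges did not overlap, and the exact two-sided permutation p of 0.0571 is the smallest that 3 against 4 libraries can give. The ratio of Eif4g3 to Eif4g1 was higher in old controls by 0.80 on the log2 scale, with the same exact p of 0.0571.

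Elsewhere in the eIF4F group, Eif4h, a cofactor of the helicase, had 581, 516, 230.0 and 480.4 CPM in young controls and 334, 265 and 140.1 CPM in old controls. The log2 fold change was -0.88 (SE 0.36, adjusted p = 0.270). Its groups overlapped through young control 3, and it was called without the 3 libraries that stand apart (-1.35, adjusted p = 0.00604). The cap-binding protein Eif4e and the helicase Eif4a1 had log2 fold changes of 0.36 and -0.12. The 4E-BP gene Eif4ebp1 was read at 157, 176, 219 and 139.6 CPM in young controls and at 159, 410.3 and 568 CPM in old controls. Old control 1 lay within the young range and the other 2 above it. Its log2 fold change of 1.13 (SE 0.36) did not pass the test (adjusted p = 0.122). It passed without old control 1 (1.56, adjusted p = 0.0106), without the 3 libraries that stand apart (1.66, adjusted p = 0.000709) and with DESeq2 (1.17, adjusted p = 0.0391). Without old control 3 it was 0.72 (adjusted p = 0.553). Its paralog Eif4ebp2 had a log2 fold change of -0.11 (SE 0.37).

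Among factors of the small subunit and subunit joining, Eif6 was read at 155, 169.7, 52.9 and 147 CPM in young controls and at 186, 295 and 366 CPM in old controls. Every old control was above every young control, the only member in that direction (2% beside 5.04% of all genes). Its log2 fold change of 1.10 (SE 0.33) did not pass (adjusted p = 0.0891). It passed with upper-quartile scaling (adjusted p = 0.0349), with DESeq2 (0.00754), without old control 1 (0.0270) and without the 3 libraries (0.00322). An antisense gene overlaps Eif6, and the strand setting is not stated, so reads that overlap both may have been counted for neither. Eif1 was 502, 959 and 991 CPM in old controls, below all young controls, and its log2 fold change of -0.61 (SE 0.27) did not pass (adjusted p = 0.307). Eif1 and Eif2a, with Eif4g1 and Eif4g2, were the 4 members whose old controls all lay below the young controls, 8% beside 6.5% of all genes.

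The 4 eIF2 alpha kinases all had values below 0, from -1.31 to -0.61, and none was called. Eif2ak2, the kinase PKR that senses double-stranded RNA, had the lowest, -1.31 (SE 0.53, adjusted p = 0.253). Young control 3 stood at 175 CPM, where the other young controls had 34.9 to 53.0 CPM and the old controls 23.6 to 35.2 CPM, and leaving single libraries out moved the value between -1.55 and -0.46. Eif5a2, a paralog of Eif5a, had -2.07 (SE 0.87, adjusted p = 0.274), again with young control 3 high, at 70.5 CPM beside 7.78 to 15.8 CPM, and was -0.92 without that library and -3.02 without old control 3. Among the eIF3 subunits with values above 0, the peripheral subunit Eif3k (log2 fold change 0.87, SE 0.34, adjusted p = 0.242) and the WD-repeat subunit Eif3i (0.75, SE 0.31, adjusted p = 0.273) had the smallest p. Without old control 3 these values were 0.51 and 0.45, and without old control 1 Eif3k was called (1.29, adjusted p = 0.0237). Eif3a and Eif3b, the large core subunits, had -0.67 (SE 0.29, adjusted p = 0.289) and -0.84 (SE 0.40, adjusted p = 0.348). The eIF2B subunits ran from -0.54 to 0.81.

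Over all members 27 had values above 0 and 23 (46%) below, beside 44.4% of all genes below, with a median of 0.05 beside 0.16 for all genes. Single old controls decided this relation: without old control 1 the medians were 0.24 and -0.35, with 57.7% of all genes below 0, and without old control 2 they were -0.14 and 0.20, with 31 members below 0. The relation also depends on the genes set beside the members. Among 8753 protein-coding genes with an average log2 CPM above 4, the longer and shorter by exon length had medians of -0.40 and 0.23. The longer and shorter members had -0.61 and 0.30. An unadjusted p below 0.05 was found for 14 members, 5 higher (10% beside 6.77% of all genes) and 9 lower (18% beside 7.45%), together 28% beside 14.2%. Old control 1 differed from the other old controls in the members as a whole: their summed level was 7657 CPM there and 12643 and 12978 CPM in old controls 2 and 3, beside 11087 to 11959 CPM in young controls. Without the 3 libraries that stand apart, 11 members were called, 7 higher (Eif1b, Eif3g, Eif3i, Eif3k, Eif4ebp1, Eif5b, Eif6) and 4 lower (Eif2ak3, Eif3b, Eif4g2, Eif4h). In that fit 9.79% of all genes were called, so the members' 22% has to be read against a higher background, with 2 old controls left.

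The members' values in this comparison varied with the length of the gene's exons. Eif4g2 has 10166 bases of annotated exon, more than any tested member other than Eif4g3 with 11063. Over the 50 members, Spearman's rho between log2 fold change and exon length was -0.46, and the longer and shorter members had medians of -0.61 and 0.30. The same was seen beyond the members: over 16721 protein-coding genes rho was -0.24, and over the 8753 of them with an average log2 CPM above 4 it was -0.44. With Mito-Q against old controls, which shares the old controls, rho was 0.36 over the members and 0.37 over those 8753 genes, and with CCCP 0.09 and 0.17. These values describe genes measured in the same libraries, with no test. The part of exon length in the difference of Eif4g2 was not tested, and Eif4g3, of similar length, had a log2 fold change of -0.05.

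Old Mito-Q libraries were compared with old controls to ask how a mitochondrial antioxidant alters transcripts of old HSCs. No member passed the test, while 0.542% of all genes did (0 of 50 members by edgeR and by DESeq2). At an unadjusted p below 0.05 there were 7 members, 14% beside 10% of all genes: 5 higher (10% beside 5.12%) and 2 lower (4% beside 4.93%). Eif4a3, Eif4g2, Eif4a2, Eif1 and Eif3a lay higher in every Mito-Q library than in any old control, 10% of the members beside 3.87% of all genes. No member lay lower throughout, beside 2.2% of all genes. Both comparisons with old controls use the same 3 libraries, so the 2 comparisons are not independent.

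Eif4a3 was read at 189, 279 and 244 CPM in old controls and at 380.5, 487, 549.9, 349 and 357 CPM with Mito-Q. The log2 fold change was 0.84 (SE 0.28, adjusted p = 0.284). Eif4g2 was at 477, 217 and 243 CPM in old controls and at 652, 586, 628, 563 and 500.2 CPM with Mito-Q. Its log2 fold change was 0.91 (SE 0.33, adjusted p = 0.333), and it passed the test without the 3 libraries that stand apart (1.32, adjusted p = 0.00139). All Mito-Q libraries remained below the lowest young control, 751 CPM. Eif4a2, the helicase paralog linked to repression by microRNAs, had 155, 179.7 and 122 CPM in old controls and 252, 298, 398, 211 and 321 CPM with Mito-Q (log2 fold change 0.96, SE 0.36, adjusted p = 0.347). It overlaps 7 annotated genes, 1 of them on the other strand, so reads that overlap Eif4a2 and another gene may have been counted for neither.

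Eif1 was at 502, 959 and 991 CPM in old controls and at 1228, 1476, 1695, 1129.6 and 1093 CPM with Mito-Q. The groups did not overlap, and old control 1 was well below the other 2. The log2 fold change was 0.70 (SE 0.26, adjusted p = 0.353, interval of 2 SE from 0.17 to 1.22), and the adjusted p stayed between 0.112 and 0.532 over its 15 alternatives. Without old control 1 the log2 fold change was 0.38. On the lower side, Eif3g, an RNA-binding subunit of eIF3, had the smallest p (log2 fold change -0.80, SE 0.30, adjusted p = 0.347), with 231, 405 and 589.6 CPM in old controls and 180.4 to 294 CPM with Mito-Q. Eif1b (-0.89, SE 0.43), Eif4ebp1 (-0.69, SE 0.34) and Eif5b, the GTPase of subunit joining (-0.79, SE 0.40), followed, with adjusted p of 0.488 for the first and 0.518 for the last. Old controls 2 and 3 lay above every Mito-Q library for these 4 genes, while old control 1 lay within the Mito-Q range for Eif3g, at its lower end for Eif5b and below it for Eif1b and Eif4ebp1. Without old control 3 the log2 fold changes shrank to -0.43 for Eif3g, -0.56 for Eif1b, -0.27 for Eif4ebp1 and -0.20 for Eif5b, and without old control 1 they were -1.15, -1.37, -1.12 and -1.23 in the same order.

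The remaining roles showed little. The 4 kinases had values of 0.03 to 0.76, the 4 genes of eIF2 and other initiator tRNA carriers 0.06 to 0.49 and the 5 eIF2B subunits -0.64 to 0.06, none with an unadjusted p below 0.05. Of all members, 28 had values above 0 and 22 (44%) below, beside 54.9% of all genes below, a split that turned to 20 and 30 with DESeq2 size factors and to 19 and 31 with upper-quartile factors. Without old control 1, 30 members were below 0 beside 39.3% of all genes, with medians of -0.23 and 0.31 where they were 0.03 and -0.12 with it. Among 8753 protein-coding genes with an average log2 CPM above 4, the longer and shorter by exon length had medians of 0.27 and -0.13 with all libraries. The longer and shorter members had 0.15 and -0.08. Upper-quartile scaling moved the median of all genes by more than 0.1 on the log2 scale, from -0.12 to -0.25 here and from 0.16 to 0.28 in old against young controls. Without the 3 libraries that stand apart, 7 members were called, Eif4g2 as higher and Eif1b, Eif3g, Eif3k, Eif4ebp1, Eif5 and Eif5b as lower, 14% beside 4.41% of all genes.

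Related members were also compared as ratios within a library, where the scaling of libraries enters only through the pseudocount. For 9 pairs and 3 comparisons, 27 exact two-sided permutation tests were made on the log2 ratio of CPM + 0.5. None passed after Benjamini-Hochberg adjustment (smallest adjusted p = 0.220). The smallest exact permutation p possible was 0.0571 for old against young controls, 0.0357 with Mito-Q and 0.0159 with CCCP. Adjusted over 27 tests, a ratio at these floors could not pass by itself. That none passed therefore says little about the ratios. Without adjustment, 4 of the 27 had an exact p below 0.05, all of them with Eif1 or Eif4ebp1 in the denominator. The ratio of Eif5 to Eif1, which act against each other in start codon choice, averaged -1.15 ± 0.14 (n = 4) in young controls and -0.52 ± 0.36 (n = 5) with CCCP, a difference of 0.62 (exact permutation p = 0.0317). In old controls it averaged -0.43 ± 0.52 (n = 3) and with Mito-Q -1.36 ± 0.18 (n = 5), a difference of -0.93 (exact permutation p = 0.0357, the smallest that 3 against 5 can give). The ratio of Eif1b to Eif1 differed by -1.45 between Mito-Q and old controls (exact permutation p = 0.0357). That of Eif4ebp2 to Eif4ebp1 differed by 1.01 between CCCP and young controls (exact permutation p = 0.0476). Eif4a2 to Eif4a1, Eif4e2 to Eif4e and Eif4e3 to Eif4e had a smallest exact permutation p of 0.143 over the 3 comparisons.

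**Figure D5:**
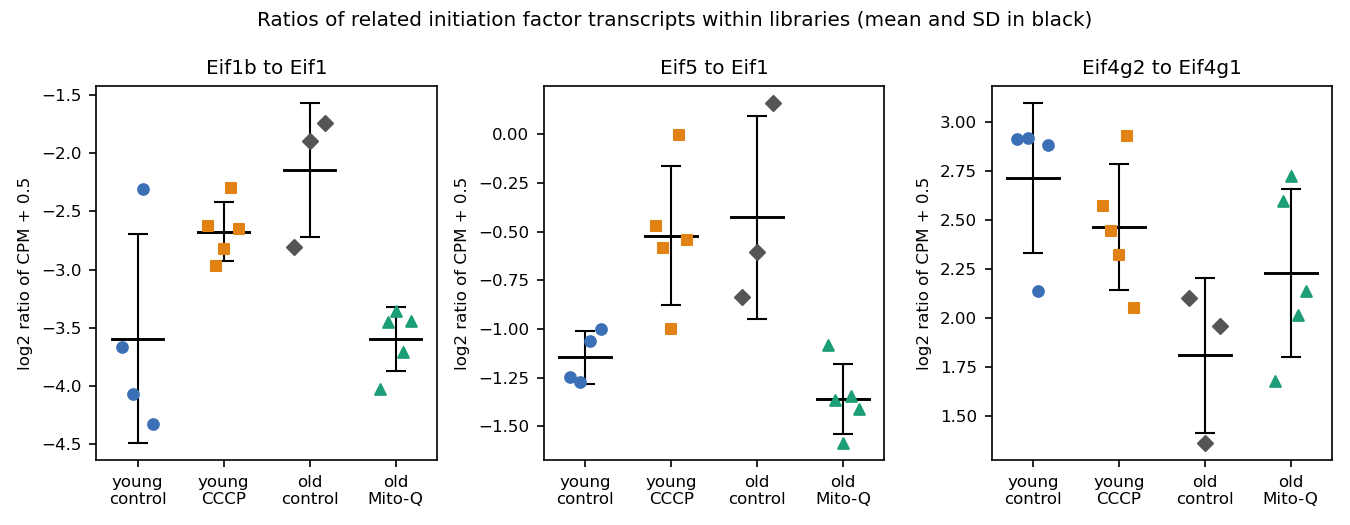
Log2 ratio of Eif1b to Eif1, Eif5 to Eif1 and Eif4g2 to Eif4g1 in every library, by group, with the mean and SD in black; CPM + 0.5 was used for both genes. For Eif5 to Eif1, 4 of 5 young CCCP libraries and all old controls sit above every young control, and all old Mito-Q libraries lie below every old control.

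Other genes of the initiation pathways were taken from lists made by known function. Of 26 partners and regulators of initiation, 2 fell in old controls, beside 1.17% of all genes called lower, and none passed in the other comparisons. Abce1, the ATPase that recycles ribosomes, averaged 237 ± 22.8 CPM (n = 4) in young and 76.6 ± 14.2 CPM (n = 3) in old controls, a change of -1.63 on the log2 scale (SE 0.35, adjusted p = 0.0132). Of 17 elongation and termination factors tested, Etf1, the release factor, fell in old controls (-1.44, SE 0.33, adjusted p = 0.0214) and none passed elsewhere. None of 30 genes of mTORC1 and its regulators passed in any comparison by edgeR, with 8, 2 and 1 at an unadjusted p below 0.05 in old controls, with Mito-Q and with CCCP. The 8 were 6 higher and 2 lower, beside 6.77% and 7.45% of all genes, the 2 were 1 in each direction, beside 5.12% and 4.93%, and the 1 was higher, beside 6.35%.

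The list of the integrated stress response, the program downstream of eIF2 alpha phosphorylation, had 25 genes tested, several of which stimulation induces as well. Ppp1r15a, the regulatory subunit that directs a phosphatase to eIF2 alpha, averaged 433 ± 114 CPM (n = 4) in young controls, 46.1 ± 4.15 CPM (n = 5) with CCCP, 58.9 ± 15.3 CPM (n = 3) in old controls and 712 ± 159 CPM (n = 5) with Mito-Q. It fell with CCCP (log2 fold change -3.23, SE 0.27, adjusted p = 1.93e-08), fell in old controls (-2.88, SE 0.33, adjusted p = 6.45e-06) and rose with Mito-Q (3.60, SE 0.33, adjusted p = 1.83e-07). Atf3, a stress-induced transcription factor, was called in the same directions (-6.84, -6.59 and 8.16). It averaged 1.93 ± 2.21 CPM with CCCP and 2.26 ± 2.50 CPM in old controls, beside 215 ± 91.6 CPM in young controls and 642 ± 244 CPM with Mito-Q. With CCCP, 4 genes of the list fell, beside 0.652% of all genes called lower, and none rose. They were, with those 2, Atf4, the transcription factor whose translation rises when eIF2 alpha is phosphorylated (-1.56, SE 0.29, adjusted p = 0.00331), and the amino acid transporter subunit Slc3a2 (-1.11, SE 0.27, adjusted p = 0.0437). In old controls 3 fell, beside 1.17% of all genes, with Ppp1r15b, the constitutive counterpart of Ppp1r15a (-1.94, SE 0.49, adjusted p = 0.0372), as the third, and 1 rose, beside 0.522%, the stress protein gene Nupr1 (3.86, SE 0.51, adjusted p = 4.27e-05). With Mito-Q 2 rose and none fell, beside 0.526% of all genes called higher and 0.0163% called lower. The immediate early sums were also lower with CCCP and in old controls and higher with Mito-Q, and their part in these changes was not tested. None of the 4 eIF2 alpha kinases, the 5 eIF2B subunits and the 4 genes of eIF2 and other initiator tRNA carriers was called in any comparison by edgeR with all libraries and the filter on low counts. Eif2s2 was called with CCCP when no filter was applied, and Eif2ak3 in old controls without the 3 libraries that stand apart.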

How the data were processed

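HSC libraries were made with a Nextera XT kit at reduced volume, per the labels' protocols. Reads were trimmed with Trim Galore and aligned with STAR 2.7 to GRCm38, per the submitters' processing notes, and the authors deposited, for every library, 1 table of raw counts by Ensembl gene ID. How reads were counted (program, annotation, strand, duplicates) is not given in the sources used here. GENCODE M21 matched 54723 of 54838 gene IDs. Of the members, 30 overlap another gene, 17 of them on the other strand, and 10 processed pseudogenes carry member names. Either can take or add reads.

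All 17 libraries were fitted together with edgeR 4.0.16 in R 4.3.3 (TMM, filterByExpr by group with a minimum count of 10, robust quasi-likelihood test). A gene was called where its p, adjusted by Benjamini-Hochberg over all 24523 genes tested, was below 0.05, and every adjusted p of a gene comes from this fit unless another tool is named. CPM is the count scaled to the TMM-adjusted total of tested genes, and the floor of 3 reads covers counting error only, since reads without molecular identifiers are not independent molecules. SDs are between libraries, and intervals are 2 SE on either side. Levels per kb use the union of annotated exons. No library pair in a group was a duplicate (lowest chi-square per degree of freedom 20.9). The fit and permutation tests were tested on simulated data.

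Alternatives were DESeq2 1.42.0 and its size factors, upper-quartile factors, no filter, only the 2 groups compared, a replicate block, each library left out, and the 3 libraries that stand apart left out. By rule the text names members called, the 4 higher and 4 lower members of smallest p in each comparison, the highest member of each role, members of the 9 pairs and up to 4 called genes of each pathway list; others were chosen after their values were seen. The members, lists and comparisons were chosen with earlier results of these data known. RefSeq promoter windows of GRCm38.p6 matched 40 members. Gcn1, in a pathway list, was not matched. Of the genes called in the pathway lists, 1 is counted but not reported here by name.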

Additional observations from a re-analysis of the deposited data

Results flagged for a closer look

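The 19 members picked by smallest p in the 3 comparisons gave 57 sets of values within groups of 4 or 5 libraries. These were searched for a single library whose gap to its nearest neighbour exceeded Dixon's 95% critical value, and 9 were found. Other members were not searched. Among those, Eif2s1 and Eif2s2 stood at 383 and 446 CPM in young control 3, beside 160 to 166 and 45.1 to 68.3 CPM in the other young controls. Chance alone flags about 1 in 20 such sets. Of the 9, 3 were in young control 3, 4 in old Mito-Q 3, and 1 each in young control 4 and young CCCP 3.

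In young control 3, Eif1b reached 265 CPM beside 61.4 to 91.2 CPM in the other young controls, Eif2ak2 reached 175 CPM beside 34.9 to 53.0 CPM, and Eif5a2 reached 70.5 CPM beside 7.78 to 15.8 CPM. The share of mitochondrial transcripts was 6.60% in that library, the highest of all. In old Mito-Q 3, Eif2ak2 stood at 109 CPM beside 32.4 to 44.1 CPM in the other Mito-Q libraries, Eif3i at 468 CPM beside 266 to 300.45 CPM, Eif3k at 427 CPM beside 247 to 263 CPM, and Eif4ebp2 at 33.3 CPM beside 55.2 to 64.0 CPM. Its mitochondrial share was 4.41%, the second highest. Eif4ebp2 was at 84.1 CPM in young control 4 beside 48.3 to 51.0 CPM, and Eif2ak2 at 28.0 CPM in young CCCP 3 beside 42.6 to 46.1 CPM. The part of the mitochondrial share in these values was not tested.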

How the results depend on the processing

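Over 14 to 16 alternatives for each comparison, the fall of Eif1 with CCCP passed the test in all 16 (log2 fold changes -1.66 to -1.52). In old against young controls the count of members called moved from 1 to 2 with upper-quartile factors, 3 with DESeq2, 0 with only the 2 groups compared, 11 without the 3 libraries that stand apart, and 0 to 4 with a single library left out. With Mito-Q it moved from 0 to 7 without the 3 libraries and stayed at 0 with any single library left out. With CCCP it moved from 1 to 2 with no filter on low counts (Eif2s2 added), with DESeq2 and without the 3 libraries (Eif4a3 added both times), and stayed at 1 with any single library left out. For the 19 members picked by smallest p, each in the comparison that picked it, values changed sign for Eif6 and Eif3b with CCCP. Eif6 was -0.069 without the 3 libraries and -0.089 to 0.34 with single libraries left out. Eif3b was -0.058 to 0.35 with single libraries left out, and neither was called with CCCP in any fit. Medians over the members also changed sign with single libraries left out, from 0.05 to between -0.14 and 0.24 in old against young controls and from 0.03 to between -0.23 and 0.13 with Mito-Q, and those over all genes from 0.16 to -0.35 and from -0.12 to 0.31 without old control 1. No paralog ratio passed in any alternative, which says little, since a ratio at the smallest exact p possible could not pass by itself. The cause of these shifts was not tested.

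Genes called overall also moved: DESeq2 called 1260, 442 and 556 genes in old controls, with Mito-Q and with CCCP, beside 415, 133 and 176 by edgeR, and 2520, 1135 and 238 were called without the 3 libraries. With only the 2 groups compared 186 were called in old controls, and 125 and 140 without old control 2 or old control 3. Without old control 1, 684 were called there. With Mito-Q 79 and 81 were called without old control 2 or old control 3. With no filter, 324 genes were called with CCCP.

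With the replicate number as a block, 1, 0 and 1 members were called, as without it, among 404, 130 and 168 genes. Deviations of same-numbered libraries correlated at -0.110 to 0.123, so the numbers were not taken to pair the libraries. With 3 to 5 libraries a group, differences of the size seen for most members cannot be told from the spread between libraries, and the untested Eif4e1b and Eif4ebp3 were not detectable at this depth in most libraries.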
